A study of Drosophila melanogaster with 18 samples.

Results

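Levels of 9 guidance genes were followed in Drosophila S2 cells: the ligand gene sli with the receptor genes robo1, robo2 and robo3, the ligand genes NetA and NetB with the receptor gene fra, and the Teneurin genes Ten-a and Ten-m. They were chosen by gene name, joined to the gene identifiers of the count tables, and are 9 of the 17609 genes listed there. All 9 are listed for all 9 groups of 2 libraries, though robo3 had counts in only 5 of the 18 libraries. The cells are S2, an embryonic line with traits of blood cells, and poly-A RNA was sequenced from cells; induced cells were taken 48 h after copper sulphate (CuSO4) was added. The control groups are genotype S2-WT with no CuSO4 or with 40, 100 or 1000 µM. The S2-Zld line, which makes the pioneer factor Zelda on induction, was taken with no CuSO4 and at a dose printed as 1000 mM. The S2-Grh line, which makes Grainy head, was taken with no CuSO4 and at a dose printed as 100 mM. The S2-Twi line, which makes Twist, was taken at 40 µM. The wild type doses are printed in µM, so the Zld and Grh groups were matched to wild type by the printed number, and whether the concentrations were equal is not known. Each induced group carries copper as well as the factor. The Twi line has no group without copper here, so the factor and the line cannot be told apart in it. The labels give neither the promoter of the transgenes nor whether a line is 1 clone, and they do not say whether the 2 libraries of a group came from separate cultures. Every p-value therefore measures the spread between these libraries, which may be technical.

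Slit is a secreted protein that repels growing axons at the midline of the nervous system, and its receptors are the Robo proteins. Netrins are secreted attractants of the same midline, with Frazzled (fra), the fly counterpart of DCC, as their receptor. Teneurins are large transmembrane proteins that match partner cells at synapses and muscles. Slit and Robo also act outside the nervous system, in the heart tube and in muscle attachment. In the embryo, sli is made by glia of the midline.

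The libraries hold 10459648 to 28575923 counted reads, so that 3 counts in 1 library are worth 0.105 to 0.287 CPM (counts per 1000000 counted reads). Levels are given as CPM of the library total, and levels per length as RPKM on the summed exon length. Changes are log2 values ± SE from edgeR's quasi-likelihood test with TMM scaling, and a gene was called at a Benjamini-Hochberg adjusted p under 0.05 over all genes tested. The 2 libraries of wild type at 40 µM stood apart from each other, with a spread of 41.2 times counting error (chi-square per degree of freedom), against 2.09 to 20.4 in the other groups. The factor genes followed the labels: zld averaged 5357 CPM in the induced Zld line, grh 999 CPM in the induced Grh line and twi 1776 CPM in the induced Twi line. The lines were not silent without copper, with 260.3 ± 65.3 CPM of zld against 8.75 ± 10.2 in untreated wild type, and 40.4 ± 5.87 CPM of grh against 0.606 ± 0.365 (SD, n = 2). Plasmatocyte markers were present in every library as a sum of 10 genes (1619 to 6058 CPM), but unevenly. The highest levels were those of Pxn (134 to 2835 CPM), Col4a1 (68.7 to 2740) and vkg (50.5 to 1956), followed by srp (320 to 511) and crq (164 to 334). NimC1 (0.346 to 2.82 CPM) and He (0.388 to 6.50) were low, and eater was 5.88 to 45.7. Hml ranged from 1.42 to 278 CPM and Sr-CI from 0.215 to 57.0. The summed level of 6 neuron markers was 15.4 to 39.1 CPM, of which elav alone made 13.8 to 33.3, of 4 glia markers the regulators repo and gcm were at most 0.361 and 0.515 CPM, while moody (111 to 172 CPM) and nrv2 (32.5 to 60.7 CPM) were present in every library.

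Per length, sli and Ten-m were the most abundant of the 9 genes in wild type cells. Untreated wild type held 116 ± 2.23 RPKM of sli and 70.5 ± 2.1 of Ten-m (SD, n = 2). The receptor genes came next, with 20.4 ± 0.978 RPKM of fra, 18.3 ± 0.302 of robo2 and 15.4 ± 0.0818 of robo1, followed by 13.4 ± 0.405 of Ten-a. The Netrin genes were lower, with 3.79 ± 0.0315 RPKM of NetA and 0.805 ± 0.124 of NetB. Of the 15152 genes with at least 1 count, 95.4% had a lower mean RPKM over the 18 libraries than sli, 93.4% a lower one than Ten-m, 80.3% than fra, 52.8% than NetA and 51.5% than NetB. The order was not the same everywhere: in the induced Twi line Ten-m (74.0 RPKM) and fra (55.8 RPKM) stood above sli (17.98 RPKM), and NetB stood above NetA in the 3 induced lines.

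**Figure D1:**
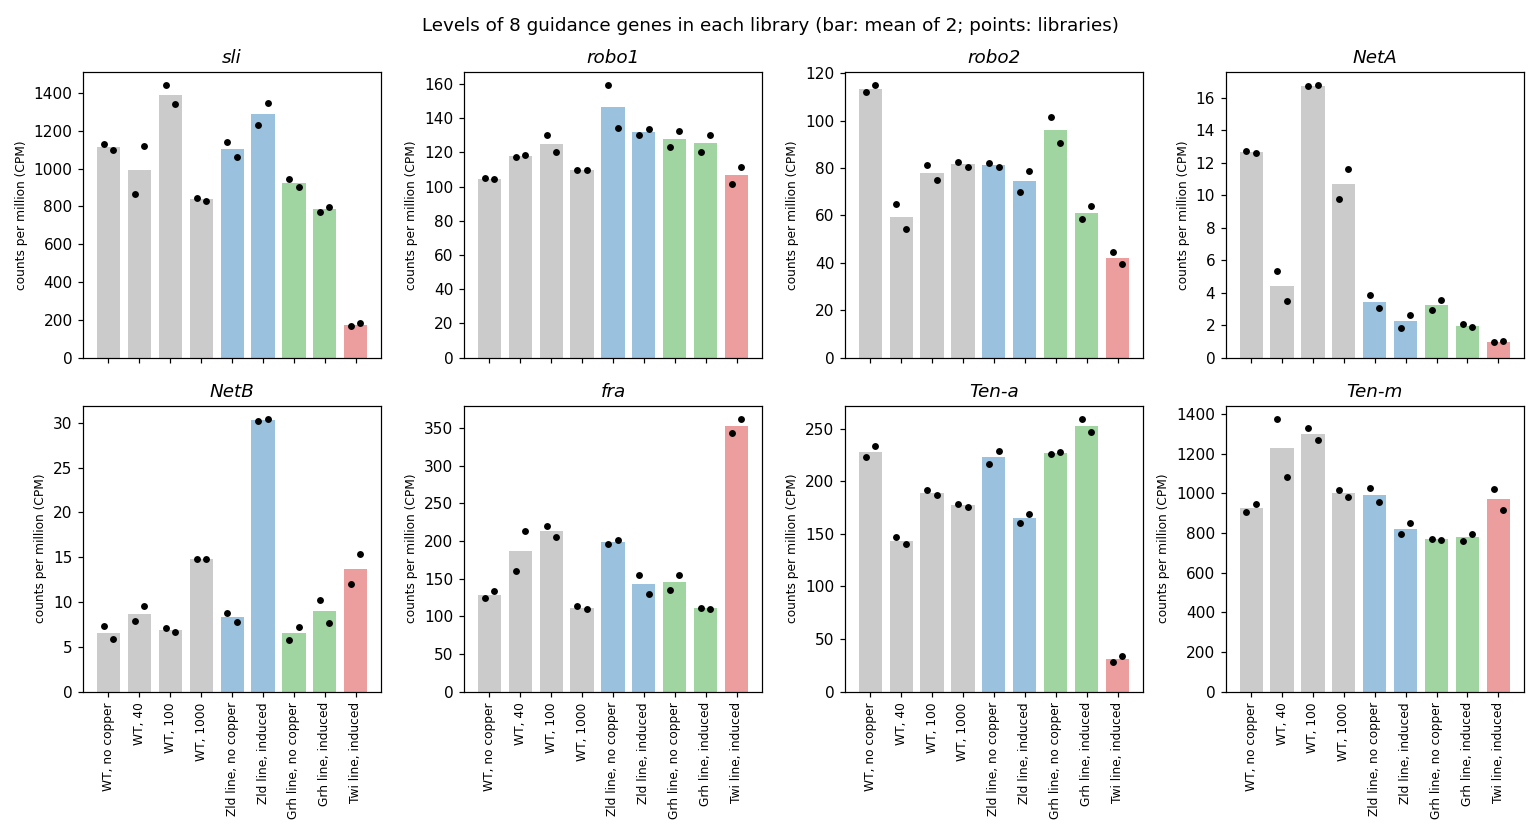
Level in CPM (y axis, linear from 0, its own scale for each gene) of 8 of the 9 genes in each group (x axis, with the CuSO4 number as printed); points are the 2 libraries and bars their mean. In the induced Twi line sli and Ten-a are at their lowest and fra at its highest, NetB is highest in the induced Zld line, and NetA is below 4 CPM in every library of the 3 derived lines.

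Between the highest and the lowest group, the mean level of NetA differed 17.0-fold, that of Ten-a 8.21-fold, that of sli 8.05-fold and that of NetB 4.67-fold. The spread was smaller for fra (3.18-fold), robo2 (2.70-fold), Ten-m (1.69-fold) and robo1 (1.40-fold). Ordered by level, 6 of the 8 neighbouring pairs of groups overlapped for Ten-m, 5 for robo1 and NetB, 4 for sli, robo2 and fra, 3 for NetA and 2 for Ten-a. For robo1, NetB and Ten-m most neighbours in that order therefore do not differ beyond the range of their 2 libraries.

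The third receptor gene, robo3 (FBgn0041097), was nearly silent. It had 9 counts in all 18 libraries together, or 0.0276 CPM (95% exact Poisson interval 0.0126 to 0.0523, counting error only), and was at 0 in 13 of them. The 5 libraries with counts were both of the induced Grh line (0.148 and 0.138 CPM), replicate 2 of the untreated Grh line (0.0950), replicate 2 of wild type at 1000 µM (0.0602) and replicate 2 of the induced Twi line (0.0431). All 5 values are at or under the 3-count floor of their library. The gene did not pass the filter on low counts in any fit, so the tests below cover 8 of the 9 genes.

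**Figure D2:**
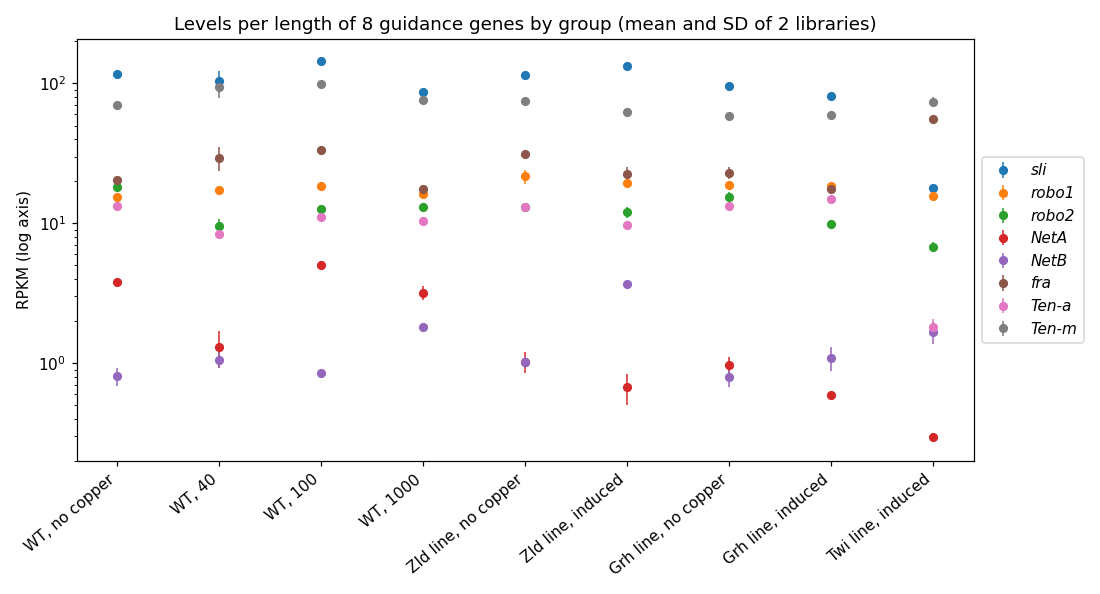
Mean level per length in RPKM (y axis, log scale) of 8 genes in the 9 groups (x axis); bars are the SD of 2 libraries. sli and Ten-m lie at the top in 8 groups, and in the induced Twi line sli falls to 17.98 RPKM, below fra at 55.8.

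On dm6 the genes lie on 4 chromosome arms, and all 9 span more than the median protein-coding gene (2.16 kb). NetA (FBgn0015773, X, 14604012 to 14653928) and NetB (FBgn0015774, X, 14686038 to 14749376) lie 32.1 kb apart on the minus strand with 1 gene between them. robo3 (2L, 1256417 to 1296596, plus strand) and robo2 (FBgn0002543, 2L, 1380086 to 1420453, minus strand) lie 83.5 kb apart with 14 genes between them. sli (FBgn0264089, 15869495 to 15922118, minus), robo1 (FBgn0005631, 22692524 to 22700970, minus) and fra (FBgn0011592, 12529053 to 12564184, plus) are on 2R, at least 3305.3 kb apart. Ten-a (FBgn0267001, X, 12043698 to 12335214, plus) spans 291.5 kb, of which 5.85% is exon, and Ten-m (FBgn0004449, 3L, 22293044 to 22407863, minus) spans 114.8 kb. The library kit keeps no strand, and 41.0% of the exonic bases of robo2 also lie in 2 noncoding RNA genes, 1 of them antisense, so that reads there cannot be told apart. Those 2 genes had 30 and 2 counts over the 18 libraries against 24439 for robo2. The shared part was 4.33% for Ten-a and 5.00% for Ten-m, and 0 for the other 6 genes.

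Calls among the 8 tested genes are read here against the share of all tested genes that were called. In induced Zld against wild type at 1000 µM, 4 were higher and 1 lower (36.4% of all genes called), and against the untreated Zld line 2 were higher and 3 lower (43.2%). In induced Grh against wild type at 100 µM, 3 were higher and 5 lower (60.8%), and against the untreated Grh line 2 were higher and 4 lower (27.2%). In induced Twi against wild type at 40 µM, 1 was higher and 4 lower (10.5%). Copper alone was followed in wild type cells against untreated wild type, where 3 were higher and 3 lower at 40 µM (40.5%), 5 higher and 2 lower at 100 µM (52.5%), and 1 higher and 3 lower at 1000 µM (29.2%). Against untreated wild type, 3 were higher and 2 lower in the untreated Zld line (20.7%), and 2 higher and 3 lower in the untreated Grh line (23.7%). With shares of this size a call of a single gene is common, and the size and direction of each gene's change carry more than the count.

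The median log2 change of the 8 genes was 0.18 and -0.18 in the Zld comparisons (with wild type and with the untreated line), -0.38 and -0.10 in the Grh comparisons and -0.44 in the Twi comparison. Over all genes tested it was between -0.0021 and 0.0492 in these 5. Called changes of at least 2-fold were found for 2 of the 8 genes in Zld against wild type (7.94% of all genes), 1 in Zld against the untreated line (13.0%), 1 in Grh against wild type (15%), none in Grh against the untreated line (7.28%) and 3 in Twi (5.42%). In bulk samples, fewer cells with a transcript and less of it per cell cannot be told apart.

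**Figure D3:**
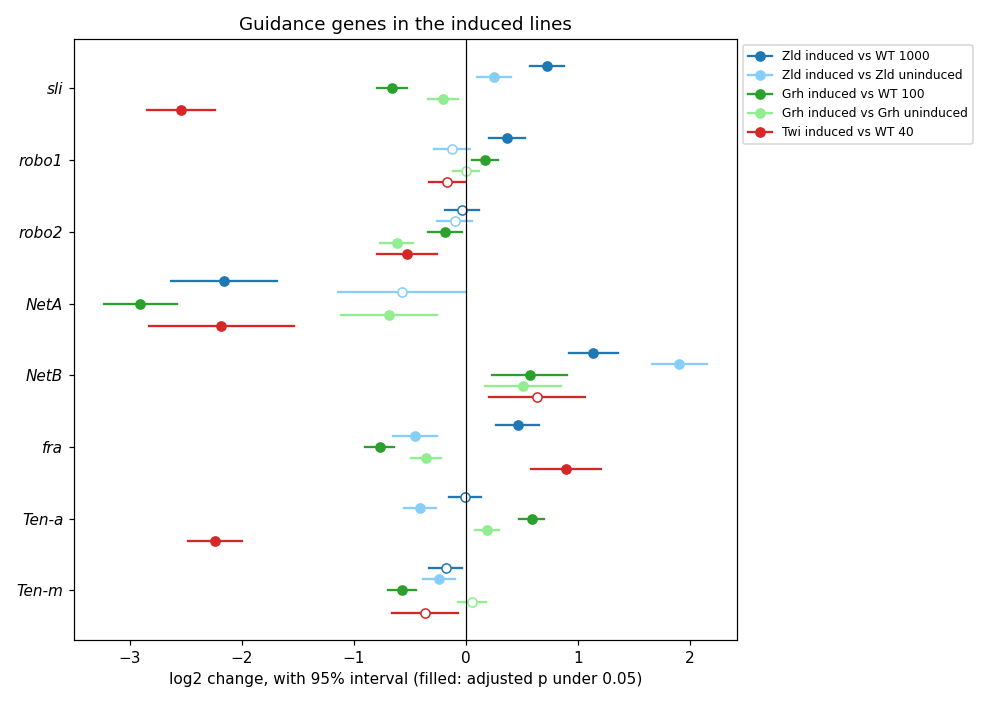
Log2 change (x axis, 0 marked) of 8 genes in the 5 comparisons of an induced line; lines are 95% intervals of the fit and filled points have an adjusted p under 0.05. The Twi comparison holds changes of -2.55 for sli, -2.24 for Ten-a and -2.18 for NetA with 0.90 for fra, and the NetA points against wild type lie between -2.16 and -2.90 in all 3 lines.

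The ligand gene sli fell most in the Twi line. Its levels were 165 and 180.5 CPM in induced Twi and 869 and 1119.6 CPM in wild type at 40 µM. The Twi libraries are the lowest of all 18, far from overlap with any other group. The log2 change was -2.55 ± 0.13 (5.84-fold lower, adjusted p = 6.59e-05), and it stayed between -2.73 and -2.36 when any 1 library was left out. Mesoderm and heart markers moved in the same samples, of which 2 of the 4 tested were called higher and none lower, with a summed level of 422 to 442 CPM over 5 genes in induced Twi and 171 to 188 in wild type at 40 µM (tin and Hand stayed at 1.03 CPM or less in every library), and their part in the result was not tested. The plasmatocyte marker sum was 4488 to 6058 CPM in induced Twi and 1619 to 2474 in wild type at 40 µM. Of the 10 genes 2 were called higher and 3 lower, with a median log2 change of -0.56, and their part was not tested either.

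In the Zld line sli rose on induction. Its levels were 1233 and 1349 CPM in induced Zld, 1141 and 1065 in the untreated Zld line, and 843 and 831 in wild type at 1000 µM. The induced libraries lie above both control groups with no overlap. This was a log2 change of 0.73 ± 0.07 against wild type (adjusted p = 2.97e-05) and 0.26 ± 0.07 against the untreated line (adjusted p = 0.0123). The second call ended without replicate 2 of induced Zld (0.20, adjusted p = 0.117) and in a fit on all 18 libraries (0.22, adjusted p = 0.0595). Against untreated wild type in place of wild type at 1000 µM, the first value was 0.33. Of the 10 plasmatocyte markers 8 were called lower and none higher in induced Zld against wild type at 1000 µM (summed level 1848 to 2180 CPM against 3172 to 3218), and their part in the result was not tested.

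In the Grh line sli fell. Its levels were 773 and 797 CPM in induced Grh, 948 and 905 in the untreated Grh line, and 1441 and 1342 in wild type at 100 µM. The 3 groups do not overlap, and the induced one is the lowest. On the log2 scale the difference was -0.66 ± 0.06 against wild type (adjusted p = 1.64e-07) and -0.20 ± 0.06 against the untreated line (adjusted p = 0.0208). The second call ended without replicate 1 of the untreated line (-0.16, adjusted p = 0.159) and with all 18 libraries (-0.26, adjusted p = 0.0527). With untreated wild type as the control the first value was -0.38. Of the 10 plasmatocyte markers 3 were called higher and 5 lower in induced Grh against wild type at 100 µM (median log2 change -0.64). Their summed level was 2779 to 2825 CPM against 2266 in both control libraries. Against the untreated line (2534 to 2873 CPM) 2 were called higher and 4 lower (median -0.50), and their part in the result was not tested.

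Copper alone moved sli in both directions in wild type cells. Untreated wild type held 1132 and 1102 CPM. Both libraries at 100 µM are above these and both at 1000 µM are below, while the libraries at 40 µM lie on either side of the lower one. The log2 change of sli was 0.29 ± 0.06 at 100 µM (adjusted p = 0.000326) and -0.40 ± 0.06 at 1000 µM (adjusted p = 0.000555). At 40 µM it was -0.12 ± 0.12 (adjusted p = 0.464), with -0.34 (adjusted p = 0.0247) without replicate 2 of that group and 0.03 without replicate 1. The untreated Zld line differed from untreated wild type by 0.07 ± 0.06 (adjusted p = 0.454). The untreated Grh line was lower by -0.17 ± 0.06 (adjusted p = 0.0367), a call that ended without replicate 1 (-0.16) or replicate 2 (-0.17) of untreated wild type, without replicate 2 of the untreated Grh line (-0.12) and with all 18 libraries (-0.16).

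The Slit receptor gene robo1 varied least. It ranged from 102 CPM in a Twi library to 159 CPM in a library of the untreated Zld line. In wild type its levels were 105 and 104 CPM without copper, 117 and 118 at 40 µM, 129.9 and 120.4 at 100 µM, and 109.7 and 109.6 at 1000 µM. In the derived lines they were 159 and 135 CPM in untreated Zld, 130.2 and 134 in induced Zld, 123 and 133 in untreated Grh, 120.35 and 130.4 in induced Grh, and 102 and 111 in induced Twi. Every library of the Zld and Grh lines lies above those of untreated wild type, whereas the Twi libraries lie on either side of them.

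Relative to untreated wild type, robo1 was higher in both untreated lines, by 0.57 ± 0.07 in Zld (adjusted p = 0.000116) and 0.39 ± 0.05 in Grh (adjusted p = 3.12e-05). Induction added no called change within a line. The fitted log2 change was -0.12 ± 0.07 in Zld (95% interval -0.28 to 0.04, adjusted p = 0.202) and 0.00 ± 0.06 in Grh (-0.12 to 0.12, adjusted p = 0.981). Without replicate 2 of the untreated Zld line, the former was called at -0.22 (adjusted p = 0.00624). Against wild type with copper, robo1 was higher by 0.37 ± 0.07 in induced Zld (adjusted p = 0.00277) and by 0.17 ± 0.06 in induced Grh (adjusted p = 0.0148). The Grh value was 0.00 (adjusted p = 0.977) when scaled by library size alone and lost its call with DESeq2 (0.14), with all 18 libraries (0.10) and without replicate 2 of wild type at 100 µM (0.12).

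In induced Twi, robo1 gave -0.17 ± 0.07 (95% interval -0.33 to -0.0031, adjusted p = 0.186). With copper alone it rose by 0.23 ± 0.05 at 100 µM (adjusted p = 0.00171) and by 0.22 ± 0.07 at 40 µM (adjusted p = 0.0412), and at 1000 µM it gave 0.08 ± 0.07 (adjusted p = 0.382). The call at 40 µM did not hold without any 1 of the 4 libraries (0.22 without replicate 2 and 0.20 without replicate 1 of untreated wild type, 0.20 without replicate 1 and 0.19 without replicate 2 at 40 µM), with DESeq2 (0.22), with no filter on low counts (0.20) or by library size alone (0.17).

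The receptor gene robo2, whose product in the fly also sets how far axons run from the midline, was highest in untreated wild type, at 112 and 114.9 CPM. It was 64.7 and 54.3 CPM at 40 µM, 81.4 and 74.8 at 100 µM and 82.7 and 80.6 at 1000 µM. No library with copper reaches the untreated ones. The log2 changes with copper were -0.88 ± 0.11 at 40 µM (adjusted p = 0.00138), -0.57 ± 0.06 at 100 µM (adjusted p = 1.10e-06) and -0.46 ± 0.06 at 1000 µM (adjusted p = 0.000252). These 3 comparisons share the untreated libraries. The doses were compared with the untreated group only, so an order between them was not tested.

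Induction in the Grh line lowered robo2 as well, from 101 and 90.7 CPM to 58.4 and 63.9 CPM. The 2 groups are well apart. The log2 change was -0.62 ± 0.07 (adjusted p = 3.62e-06), against -0.57 for copper alone at 100 µM in wild type, and against wild type at 100 µM the induced line gave -0.18 ± 0.07 (adjusted p = 0.0321). The last call ended without replicate 1 of wild type at 100 µM (-0.14), without replicate 1 of induced Grh (-0.14) and with DESeq2 (-0.21), and its value was -0.35 by library size alone and -0.76 against untreated wild type.

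In the Zld line robo2 was 82.0 and 80.5 CPM without copper and 70.1 and 78.9 CPM with it. The untreated Zld line was below untreated wild type by -0.39 ± 0.06 (adjusted p = 0.00132), and induction gave -0.10 ± 0.07 (95% interval -0.26 to 0.06, adjusted p = 0.278). Against wild type at 1000 µM, induced Zld gave -0.03 ± 0.07 (adjusted p = 0.744), and against untreated wild type -0.49 (adjusted p = 4.87e-05). In induced Twi robo2 was at its lowest, 44.6 and 39.5 CPM. The log2 change from wild type at 40 µM was -0.52 ± 0.11 (adjusted p = 0.0287), and the call ended without replicate 1 of that control (-0.40) and without replicate 1 (-0.66) or replicate 2 (-0.43) of induced Twi. It was -1.40 against untreated wild type. The untreated Grh line gave -0.14 ± 0.06 (adjusted p = 0.114), called at -0.23 without its replicate 1 and at -0.24 by library size alone.

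The Netrin genes, neighbours on the X chromosome, moved apart. NetA was low in all 3 derived lines, and also in wild type at 40 µM (5.32 and 3.46 CPM), which overlaps the untreated Zld line. Its levels were 12.75 and 12.6 CPM in untreated wild type, 3.82 and 3.03 in untreated Zld, 1.85 and 2.65 in induced Zld, 2.93 and 3.56 in untreated Grh, 2.08 and 1.86 in induced Grh, and 0.935 and 1.03 in induced Twi. No library of a derived line overlaps untreated wild type, and this includes the 4 libraries that had no copper. The Twi group rests on 42 counts of NetA over its 2 libraries, the induced Zld group on 66 and the induced Grh group on 69.

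Relative to untreated wild type, NetA was lower by -1.82 ± 0.18 in the untreated Zld line (3.54-fold, adjusted p = 3.74e-05) and by -1.85 ± 0.14 in the untreated Grh line (3.60-fold, adjusted p = 2.60e-08). Against wild type with the same copper number the induced lines were lower by -2.16 ± 0.21 for Zld (adjusted p = 3.89e-05), -2.90 ± 0.15 for Grh (adjusted p = 1.64e-10) and -2.18 ± 0.27 for Twi (adjusted p = 0.00298). Induction within a line added less. In Zld it gave -0.57 ± 0.26 (95% interval -1.14 to 0.0035, adjusted p = 0.101). In Grh it gave -0.69 ± 0.20 (adjusted p = 0.0183), a call lost without replicate 2 of either Grh group (-0.60 for induced, -0.54 for untreated) and with DESeq2 (-0.71, adjusted p = 0.107). The Twi value was -3.65 against untreated wild type.

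In wild type cells with copper NetA was 5.32 and 3.46 CPM at 40 µM, 16.75 and 16.76 at 100 µM, and 9.78 and 11.6 at 1000 µM. The 40 µM group lies below the untreated one, the 100 µM group above it, and both libraries at 1000 µM are below it. The log2 change of NetA was -1.47 ± 0.22 at 40 µM (adjusted p = 0.00288) and 0.38 ± 0.10 at 100 µM (adjusted p = 0.00620), the latter lost without replicate 2 at 100 µM (0.36), with DESeq2 (0.39) and with all 18 libraries (0.39). At 1000 µM it was -0.23 ± 0.14 (adjusted p = 0.254).

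NetB rose most in the induced Zld line, to 30.2 and 30.4 CPM, from 8.80 and 7.77 in the untreated Zld line. Wild type at 1000 µM held 14.75 and 14.755 CPM, and untreated wild type 7.29 and 5.865. The induced libraries are the highest of all 18. On the log2 scale the difference was 1.91 ± 0.11 against the untreated line (3.75-fold, adjusted p = 5.47e-07) and 1.14 ± 0.10 against wild type at 1000 µM (2.20-fold, adjusted p = 1.55e-05). Copper alone at that number raised NetB by 1.18 ± 0.12 (adjusted p = 3.60e-05). Against untreated wild type, induced Zld was higher by 2.32. The untreated Zld line gave 0.41 ± 0.14 (adjusted p = 0.0563).

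In the other groups NetB changed less. It was 5.79 and 7.175 CPM in untreated Grh, 10.2 and 7.70 in induced Grh, 7.12 and 6.68 in wild type at 100 µM, 7.84 and 9.50 in wild type at 40 µM, and 11.9 and 15.3 in induced Twi. The induced Grh libraries are above both of their control groups, and replicate 2 lies close to them. The log2 change in induced Grh was 0.57 ± 0.16 against wild type (adjusted p = 0.00523) and 0.51 ± 0.16 against the untreated line (adjusted p = 0.0247). Both calls ended without replicate 1 of induced Grh (0.31 and 0.24) and with DESeq2 (0.52 and 0.48). The first also ended without replicate 2 of wild type at 100 µM (0.53), and the second without replicate 1 of untreated Grh (0.38) and with all 18 libraries (0.45).

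Induced Twi gave 0.64 ± 0.18 for NetB (95% interval 0.21 to 1.07, adjusted p = 0.0722). It was called without replicate 2 of wild type at 40 µM (0.77, adjusted p = 0.0431), with no filter on low counts (0.63), with all 18 libraries (0.64) and against untreated wild type (1.08). At 40 µM copper gave 0.44 ± 0.19 (adjusted p = 0.102), called with all 18 libraries (0.43), and at 100 µM 0.03 ± 0.17 (adjusted p = 0.885). The untreated Grh line gave 0.09 ± 0.17 (adjusted p = 0.755).

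Within a library the level of NetB per length relative to NetA needs no scaling between libraries. It was 0.234 and 0.190 in untreated wild type and 0.174 and 0.163 in wild type at 100 µM, where NetA was the more abundant. It was 0.603 and 1.12 at 40 µM and 0.618 and 0.520 at 1000 µM. The untreated lines were near 1, with 0.941 and 1.05 in Zld and 0.810 and 0.824 in Grh. After induction NetB was the more abundant in every library, with 6.67 and 4.70 in Zld, 2.01 and 1.70 in Grh, and 5.23 and 6.07 in Twi. The induced libraries of all 3 lines lie above all 12 others.

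**Figure D4:**
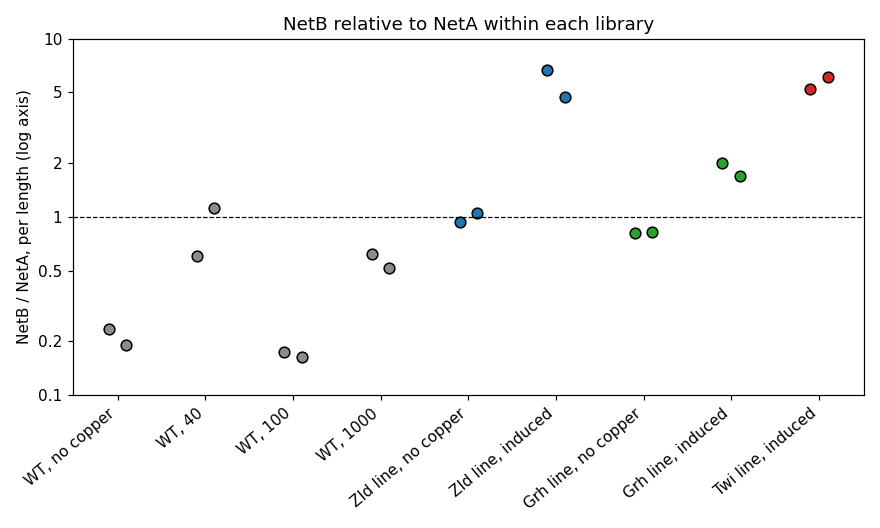
Ratio of NetB to NetA per length (y axis, log scale) in each of the 18 libraries, grouped along the x axis; the dashed line marks equal levels. Wild type libraries with no copper or 100 µM lie between 0.163 and 0.234, and the 6 induced libraries of the derived lines between 1.70 and 6.67.

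The Netrin receptor gene fra rose in the Twi line, to 344 and 361 CPM from 160.5 and 213 CPM in wild type at 40 µM. The Twi libraries are the highest of all 18. The log2 change of fra was 0.90 ± 0.13 (1.86-fold, adjusted p = 0.00624), between 0.70 and 1.10 with any 1 library left out, and 1.48 against untreated wild type. The higher receptor level stood in the same libraries as the lowest NetA. NetB in these libraries was 11.9 and 15.3 CPM, above the 7.84 and 9.50 CPM of wild type at 40 µM, a change that was not called (0.64 ± 0.18, adjusted p = 0.0722).

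In the Zld line the direction of fra depended on the control. Levels were 155 and 129.8 CPM in induced Zld, 196 and 202 in the untreated line, 113 and 109 in wild type at 1000 µM, and 124 and 133 in untreated wild type. The induced libraries lie between their 2 control groups without overlapping either. The fitted log2 change was 0.46 ± 0.09 against wild type (adjusted p = 0.00246) and -0.45 ± 0.09 against the untreated line (adjusted p = 0.00192). The untreated line itself was above untreated wild type by 0.72 ± 0.08 (adjusted p = 0.000152), and against untreated wild type induced Zld gave 0.27.

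In induced Grh fra was 112 and 110.1 CPM, against 135 and 155 in the untreated line and 220.1 and 205 in wild type at 100 µM. The induced libraries are below both. The log2 change was -0.77 ± 0.06 against wild type (adjusted p = 3.11e-08) and -0.36 ± 0.06 against the untreated line (adjusted p = 0.000412). With untreated wild type as control the first was -0.08 (adjusted p = 0.328). The untreated Grh line was above untreated wild type by 0.28 ± 0.06 (adjusted p = 0.00343), a call lost without replicate 1 of untreated wild type (0.22), without replicate 2 of the untreated Grh line (0.18) and with all 18 libraries (0.29), and 0.18 by library size alone.

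Copper alone raised fra by 0.69 ± 0.06 at 100 µM (adjusted p = 1.05e-07) and by 0.58 ± 0.13 at 40 µM (adjusted p = 0.0134). The latter was not called without replicate 1 (0.51) or replicate 2 (0.64) of untreated wild type and was 0.34 without replicate 2 at 40 µM. At 1000 µM it was -0.20 ± 0.09 (adjusted p = 0.103), called with no filter on low counts (-0.21). Both libraries at 1000 µM lie below the untreated ones, whereas all 4 at the lower doses lie above.

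**Figure D5:**
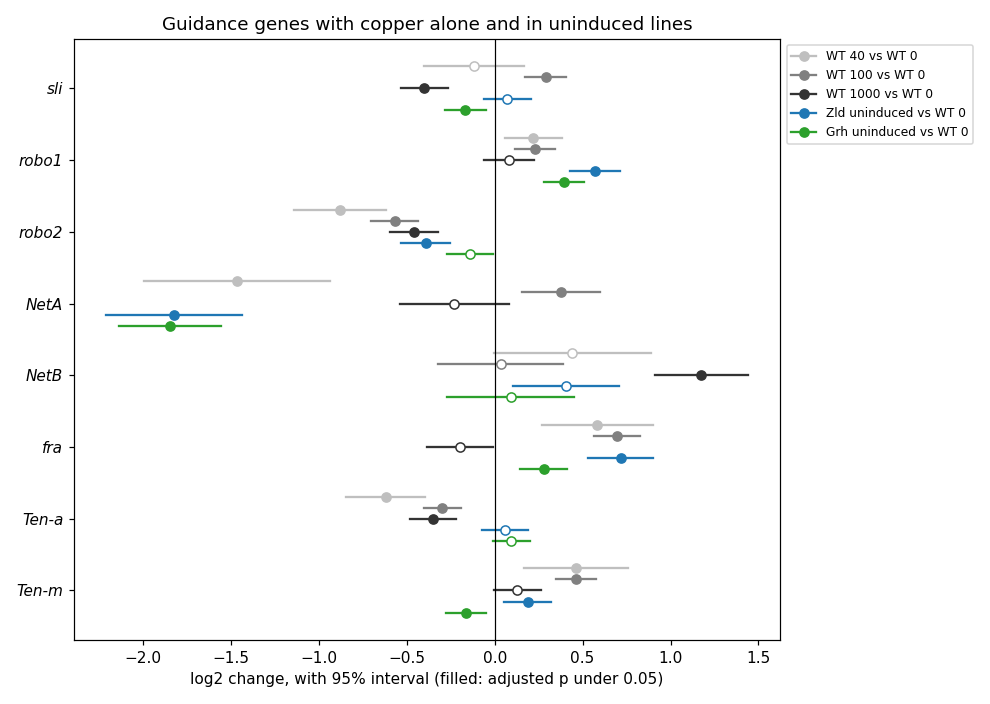
Log2 change from untreated wild type (x axis, 0 marked) of 8 genes in wild type at 3 copper doses and in the 2 lines without copper; lines are 95% intervals and filled points have an adjusted p under 0.05. robo2 is lower at all 3 doses, NetA is lower by -1.82 and -1.85 in the untreated lines, and robo1 and fra are higher in both untreated lines, a call that for fra in the Grh line ended with all 18 libraries.

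The Teneurin gene Ten-a fell with sli in the Twi line. It was 27.7 and 34.0 CPM in induced Twi and 147 and 140.2 CPM in wild type at 40 µM. Every other library of the series holds more Ten-a than these 2. This was a log2 change of -2.24 ± 0.10 (4.73-fold lower, adjusted p = 5.19e-05), between -2.39 and -2.14 with any 1 library left out and -2.86 against untreated wild type.

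In the other lines Ten-a changed by less than 2-fold. Its levels were 161 and 169 CPM in induced Zld, 217 and 229 in untreated Zld, and 179 and 176 in wild type at 1000 µM. In CPM of the library total the induced libraries lie below both control groups, whereas the fitted changes are scaled by TMM. On the log2 scale the difference was -0.41 ± 0.06 against the untreated line (adjusted p = 0.000518) and -0.0048 ± 0.06 against wild type (adjusted p = 0.962), and the latter was -0.35 and called against untreated wild type. In induced Grh it rose to 259 and 247 CPM, its highest, from 226 and 229 in the untreated line and against 192 and 187 in wild type at 100 µM. Its log2 change was 0.59 ± 0.05 against wild type (adjusted p = 7.68e-08), or 0.28 against untreated wild type, and 0.19 ± 0.05 against the untreated line (adjusted p = 0.0103). The last call was lost without replicate 1 of induced Grh (0.13), without replicate 1 (0.19) or replicate 2 (0.18) of untreated Grh, with all 18 libraries (0.13) and with DESeq2 (0.17).

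Copper alone lowered Ten-a at each dose from 224 and 233 CPM. The fitted log2 change was -0.62 ± 0.10 at 40 µM (adjusted p = 0.00291), -0.30 ± 0.05 at 100 µM (adjusted p = 9.49e-05) and -0.35 ± 0.06 at 1000 µM (adjusted p = 0.00117). No library with copper overlaps the untreated ones. The lines without copper gave 0.06 ± 0.06 in Zld (adjusted p = 0.546) and 0.09 ± 0.05 in Grh (adjusted p = 0.195).

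The second Teneurin gene, Ten-m, also known as odd Oz, moved less. It was 905 and 943 CPM in untreated wild type, 1373 and 1083 at 40 µM, 1330.1 and 1268 at 100 µM and 1014 and 984 at 1000 µM. The 2 lower doses lie above the untreated libraries by the widest margin. The log2 change of Ten-m was 0.46 ± 0.13 at 40 µM (adjusted p = 0.0250), 0.46 ± 0.05 at 100 µM (adjusted p = 1.74e-06) and 0.13 ± 0.06 at 1000 µM (adjusted p = 0.140). The 40 µM call was lost without replicate 1 at 40 µM (0.26), and without replicate 1 (0.41) or replicate 2 (0.49) of untreated wild type.

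In induced Twi Ten-m was 1022 and 917 CPM, which overlaps no library at 40 µM, and the log2 change was -0.36 ± 0.13 (95% interval -0.66 to -0.07, adjusted p = 0.126). It was called without replicate 2 of wild type at 40 µM (-0.53), with no filter on low counts (-0.37) and with all 18 libraries (-0.37), and against untreated wild type it was 0.10. The Teneurin genes thus stood far apart in this line, with 48.0 and 35.1 times as much Ten-m as Ten-a per length in its 2 libraries against 3.82 to 12.2 in the other 16.

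Induced Grh held 761 and 796 CPM of Ten-m, and the untreated line 770.4 and 765. These overlap, and both groups are below every wild type library. The log2 change was -0.57 ± 0.06 against wild type at 100 µM (adjusted p = 4.09e-07), -0.12 (adjusted p = 0.103) against untreated wild type, and 0.05 ± 0.06 against the untreated line (95% interval -0.07 to 0.18, adjusted p = 0.548). The untreated line was below untreated wild type by -0.17 ± 0.05 (adjusted p = 0.0342), a call that ended without any 1 of the 4 libraries (-0.21 without replicate 1 and -0.12 without replicate 2 of untreated wild type, -0.18 without replicate 1 and -0.15 without replicate 2 of untreated Grh) and with all 18 libraries (-0.15), and was -0.27 by library size alone.

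Induced Zld held 796 and 848 CPM of Ten-m, against 1025 and 955 in the untreated line. This was a log2 change of -0.24 ± 0.07 (adjusted p = 0.0137), lost without replicate 1 of induced Zld (-0.21, adjusted p = 0.122). Against wild type at 1000 µM it was -0.18 ± 0.07 (adjusted p = 0.0547), called with DESeq2 (-0.19), with no filter on low counts (-0.20), with all 8 libraries of the table (-0.18) and by library size alone (-0.28). The untreated Zld line was above untreated wild type by 0.19 ± 0.06 (adjusted p = 0.0485), lost without replicate 1 (0.14) or replicate 2 (0.23) of untreated wild type, by library size alone (0.10), with no filter (0.17) and with all 18 libraries (0.18).

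Whether the change with copper differed between a line and wild type was tested as an interaction over 8 libraries. In a line this change includes induction of the factor, so copper and factor cannot be told apart here. In the Zld line 4 of the 8 genes were called, 3 higher and 1 lower (12.5% of all genes called). The change with copper was greater in the line for sli (0.66 ± 0.09, adjusted p = 0.000458), NetB (0.73 ± 0.17, adjusted p = 0.0156) and robo2 (0.36 ± 0.09, adjusted p = 0.0223), and smaller for Ten-m (-0.37 ± 0.09, adjusted p = 0.0156). For sli this joins a fall with copper in wild type to a rise in the line. The call for sli held with each library left out. Those for the other 3 did not: robo2 was not called without replicate 1 (0.38) or 2 (0.33) of wild type at 1000 µM, replicate 1 (0.39) or 2 (0.33) of untreated wild type or replicate 2 of induced Zld (0.28). NetB was not called without replicate 1 (0.73) or 2 (0.72) of wild type at 1000 µM, replicate 1 of untreated wild type (0.57) or replicate 1 of induced Zld (0.70). Ten-m was not called without replicate 1 (-0.34) or 2 (-0.40) of wild type at 1000 µM, replicate 1 of untreated wild type (-0.33) or replicate 1 of induced Zld (-0.36). With all 18 libraries the 3 values were 0.35, 0.72 and -0.38 and not called, and with DESeq2 robo2 (0.34) and NetB (0.71) were not called.

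In the same model the remaining genes gave -0.20 for robo1 (adjusted p = 0.190), -0.25 for fra (adjusted p = 0.207), -0.34 for NetA (adjusted p = 0.50) and -0.06 for Ten-a (adjusted p = 0.714). Calls appeared for robo1 without replicate 2 of untreated Zld (-0.30) and for fra without replicate 1 of induced Zld (-0.43).

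In the Grh line 6 genes were called, 1 higher and 5 lower (43.3% of all genes). The change with copper was lower in the line for NetA (-1.07 ± 0.22, adjusted p = 0.000914), fra (-1.06 ± 0.09, adjusted p = 8.19e-08), sli (-0.50 ± 0.08, adjusted p = 7.04e-05), Ten-m (-0.41 ± 0.08, adjusted p = 0.000314) and robo1 (-0.23 ± 0.08, adjusted p = 0.0193). It was higher for Ten-a (0.48 ± 0.07, adjusted p = 3.00e-05). For fra, sli and NetA a rise with copper in wild type stands against a fall in the Grh line, and for Ten-a the reverse. The robo1 call ended without replicate 1 of wild type at 100 µM (-0.18), replicate 1 (-0.21) or 2 (-0.23) of untreated wild type, replicate 1 of induced Grh (-0.19) or replicate 2 of untreated Grh (-0.19). The values of robo2 (-0.05, adjusted p = 0.686) and NetB (0.47, adjusted p = 0.118) were not called, and NetB was called without replicate 2 of induced Grh (0.65).

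Differences between the induced lines were tested over all 18 libraries. Each value is the change against wild type at the matched number in 1 line minus that in another. It holds standing differences between a line and wild type as well as the factor, which this test does not separate. Between Zld and Grh 5 genes were higher and 1 lower (42.6% of all genes called). The largest by size were sli (1.43 ± 0.13, adjusted p = 2.26e-07) and fra (1.28 ± 0.16, adjusted p = 1.63e-05), and NetB (0.63 ± 0.22, adjusted p = 0.0326), Ten-a (-0.54 ± 0.11, adjusted p = 0.000922) and Ten-m (0.44 ± 0.13, adjusted p = 0.0115) were smaller. The Ten-m call ended without replicate 2 of wild type at 1000 µM (0.41) or of induced Zld (0.36). The calls of NetB and of robo1 (0.25 ± 0.09, adjusted p = 0.0384) were each lost without most single libraries. For NetB these were replicates 1 (0.63) and 2 (0.61) of wild type at 1000 µM, 1 (0.59) and 2 (0.66) of wild type at 100 µM, 1 (0.62) and 2 (0.58) of induced Zld, and 2 of induced Grh (0.42), and it was also lost with DESeq2 (0.61). For robo1 they were 1 (0.25) and 2 (0.24) of wild type at 1000 µM, 1 of wild type at 100 µM (0.20), 1 (0.26) and 2 (0.19) of induced Zld, and 1 (0.21) and 2 (0.27) of induced Grh. The robo1 call was also lost with DESeq2 (0.23), the RLE size factors (0.23), no filter (0.20) and library size alone (0.27). NetA gave 0.80 ± 0.32 (adjusted p = 0.0519), called without replicate 1 of induced Zld (1.03), and robo2 0.20 ± 0.13 (adjusted p = 0.236).

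Between Zld and Twi 4 genes were higher and none lower (21.1% of all genes called). These were sli (3.26 ± 0.13, adjusted p = 5.85e-11), Ten-a (2.23 ± 0.11, adjusted p = 5.15e-10), robo1 (0.53 ± 0.09, adjusted p = 0.000557) and robo2 (0.49 ± 0.13, adjusted p = 0.0155). The robo2 call ended without replicate 2 of wild type at 1000 µM (0.45), of induced Zld (0.41) or of induced Twi (0.38), or without replicate 1 of wild type at 40 µM (0.34). The value of fra was -0.44 ± 0.16 (adjusted p = 0.0640), called without replicate 1 of induced Zld (-0.59) or replicate 2 of wild type at 40 µM (-0.65), with no filter (-0.45) and by library size alone (-0.56). NetA differed by 0.02 ± 0.28 (95% interval -0.58 to 0.62). NetB gave 0.49 ± 0.21 (adjusted p = 0.113), called without replicate 1 of wild type at 40 µM (0.62) or replicate 2 of induced Twi (0.66), and Ten-m 0.17 ± 0.13 (adjusted p = 0.372), called without replicate 2 of wild type at 40 µM (0.34).

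Between Grh and Twi 3 genes were higher and 1 lower (40.1% of all genes called). They were Ten-a (2.77 ± 0.11, adjusted p = 3.51e-11), sli (1.83 ± 0.13, adjusted p = 1.28e-08), fra (-1.73 ± 0.16, adjusted p = 6.07e-07) and robo1 (0.28 ± 0.09, adjusted p = 0.0239). The robo1 call ended without replicate 2 of wild type at 100 µM (0.23) or of induced Grh (0.25), without replicate 1 of induced Twi (0.23) and by library size alone (0.15). NetA (-0.78 ± 0.35, adjusted p = 0.0849) and Ten-m (-0.27 ± 0.13, adjusted p = 0.111) were called without replicate 1 of wild type at 40 µM (-1.14 and -0.45) and by library size alone (-0.91 and -0.40). The value of robo2 was 0.28 ± 0.13 (adjusted p = 0.103), called without replicate 2 of wild type at 40 µM (0.45), without replicate 1 of induced Twi (0.39) and with no filter (0.33), and that of NetB -0.14 ± 0.23 (adjusted p = 0.661).

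Other genes of the same pathways were taken from 6 lists with 60 genes. Their counts stand beside the same shares of all genes called as above, 36.4% in Zld and 60.8% in Grh against wild type, 43.2% and 27.2% against the untreated lines, and 10.5% in Twi, and medians beside those over all genes, 0.02, 0.05, 0.0049, 0.00040 and -0.0021 in that order. The Slit-Robo list holds glypicans, Commissureless proteins that sort Robo, and effectors of the cytoskeleton. Of its 16 tested genes 5 were higher and 5 lower in Zld against wild type (median log2 change -0.05), and 4 higher and 5 lower against the untreated line (-0.03). In Grh 4 of 15 were higher and 6 lower against wild type (-0.09), a share near that of all genes, and 4 higher and 1 lower against the untreated line (-0.05). In Twi 3 of 16 were higher and 2 lower (0.02). The glypican genes moved in opposite directions on Zld induction. The level of dally fell from 76.6 ± 2.32 CPM in the untreated line to 20.04 ± 0.470 (log2 change -1.90 ± 0.08, adjusted p = 6.12e-08), and that of dlp rose from 14.5 ± 2.46 to 47.1 ± 7.06 (1.71 ± 0.15, adjusted p = 1.12e-05). Against wild type at 1000 µM the changes were -1.14 for dally and 1.05 for dlp. In Grh dlp was higher by 1.49 ± 0.09 against the untreated line (adjusted p = 1.87e-09), while against wild type at 100 µM no gene of this list was called at least 2-fold higher. The kinase gene Abl rose by 1.03 and comm2, from 11 to 41 counts, by 1.77 in induced Zld against the untreated Zld line. In Zld against wild type at 1000 µM, dlp alone of this list was called at least 2-fold higher. The level of comm2 was 1.37 CPM in induced Zld and 1.30 CPM in that control. Copper alone raised dally by 1.44 at 40 µM and 1.59 at 100 µM, and comm2 by 1.15 at 1000 µM.

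The Netrin list adds Dscam1, which serves as a Netrin receptor in the fly, and effectors. In Grh against wild type 1 of its 6 tested genes was higher and 4 lower (median -0.66, 60.8% of all genes called), and against the untreated line none was higher and 2 lower (-0.21). In Zld none of 7 was higher and 3 lower against wild type (-0.20), and 1 higher and 3 lower against the untreated line (-0.0051). In Twi 2 of 7 were higher and 1 lower (0.60). Dscam1 was 311 ± 11.1 CPM in induced Grh and 848 ± 46.8 in wild type at 100 µM (-1.28 ± 0.06, adjusted p = 2.92e-11), and 393 ± 12.4 in untreated wild type, from which it rose with copper by 1.08 at 100 µM and 1.13 at 40 µM. Its relative Dscam2 was rare, with 27 counts in untreated wild type, none in the untreated Zld line (at least 6.88-fold lower, with 3 counts over the group as the floor) and 8 in induced Zld. It had 41 counts in wild type at 1000 µM, 6 in untreated Grh and 5 each in wild type at 40 and 100 µM, and was called lower in induced Zld against wild type (-2.07), in the untreated Grh line (-2.08) and at both of those doses (-2.78 and -2.45).

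Of the list of Teneurin partners and other surface proteins that match cells, 4 of 5 tested genes were higher and none lower in Zld against wild type (median 0.92, 36.4% of all genes called), but against the untreated line 1 was higher and 1 lower (-0.03). In Grh 1 was higher and 3 lower against wild type (-0.26), and 2 higher and 1 lower against the untreated line (-0.03). In Twi none was higher and 1 lower (-0.05). The Toll family gene Toll-7 was 51.0 ± 2.91 CPM in induced Zld and 20.6 ± 0.517 in wild type at 1000 µM (1.41 ± 0.09, adjusted p = 1.84e-06). Toll-7 was lower in Grh against wild type at 100 µM (-1.37 ± 0.09, adjusted p = 2.31e-09) and in Twi against wild type at 40 µM (-1.15 ± 0.26, adjusted p = 0.0368). With copper alone it fell at 40 µM (-1.99) and 1000 µM (-1.26). In Grh against the untreated line no gene of this list was called with a change of at least 2-fold. Fili, a leucine-rich repeat gene of wiring in the fly brain, rose from 6 to 72 counts on Zld induction (3.43 ± 0.44, adjusted p = 0.000154) and by 2.01 against wild type, and 18w fell by 1.55 on the log2 scale in Grh against wild type.

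Among the semaphorins and plexins, 4 of 10 tested genes were higher and none lower in Zld against wild type (median 0.33), near the 36.4% of all genes called, and 2 were higher and 2 lower against the untreated line (-0.0026). In Grh 5 of 11 were higher and 2 lower against wild type (0.34), and 5 higher and none lower against the untreated line (0.12). In Twi none of 10 was higher and 1 lower (-0.21). A receptor-like gene linked to plexin signalling, otk, was 13.8 ± 0.233 CPM in induced Zld, 84.8 ± 2.15 in induced Grh, 0.786 ± 0.00474 in wild type at 1000 µM and 6.11 ± 1.33 at 100 µM. Its log2 change was 4.22 ± 0.21 in Zld (adjusted p = 2.08e-07) and 3.93 ± 0.10 in Grh (adjusted p = 9.42e-14), or 1.44 and 4.69 against the untreated lines. Copper alone gave -2.61 at 40 µM, 1.03 at 100 µM and -1.91 at 1000 µM. Its neighbour in the list, otk2, rose by 3.27 in Grh against wild type, 3.19 against the untreated line and 2.54 in Zld against the untreated line. In Zld against wild type, otk alone of this list was called at least 2-fold higher. Sema2b had 30 counts in induced Grh, 15 in wild type at 100 µM (1.26, adjusted p = 0.0311) and 1 in the untreated line (ratio 32.0, 95% counting interval 5.32 to 1306). At 40 µM copper raised PlexA (1.40) and PlexB (1.04) and lowered Sema5c (-1.24).

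In the list of ephrin and Wnt5-Derailed guidance, 1 of 5 tested genes was higher and 1 lower in Zld against wild type (median 0.10), and 1 higher and 1 lower against the untreated line (-0.30). In Grh 2 of 5 were higher and none lower both against wild type (-0.0049) and against the untreated line (0.10), and none of 6 in Twi (0.12) was called by edgeR (3 at an unadjusted p under 0.05, and none by DESeq2). In the list of immunoglobulin-type adhesion genes 1 of 5 was higher and 1 lower in Zld against wild type (-0.01), and 2 higher and 1 lower against the untreated line (0.05). In Grh 2 were higher and 2 lower against wild type (0.12), and 3 higher and none lower against the untreated line (0.81, 27.2% of all genes called). In Twi none was higher and 2 lower (-0.23). Neuroglian (Nrg) was 194 ± 7.40 CPM in induced Grh and 11.0 ± 0.415 in wild type at 100 µM (4.32 ± 0.08, adjusted p = 2.34e-15), or 3.20 against the untreated line. It fell in Zld against wild type by 1.21 on the log2 scale and rose at 40 µM by 2.26. Fas3 rose in Grh by 4.36 ± 0.23 (adjusted p = 7.91e-10), or 2.84 against the untreated line, and was 2.15 ± 0.117 CPM in induced Twi against 19.5 ± 0.823 in wild type at 40 µM (-3.20 ± 0.27, adjusted p = 0.000573). In untreated wild type it was 0.604 ± 0.444 CPM, so copper at 40 µM alone gave 5.03, and the untreated Grh line 2.17. Fas2 rose by 1.06 in Zld against the untreated line, and Lar, which shares 83.6% of its exonic bases with other genes, by 1.11 at 40 µM. In Zld against wild type no gene of this list was called at least 2-fold higher.

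For each of the 8 measured genes, the most similar of 9521 genes were found by Pearson's r of log2(mean CPM + 1) over the 9 groups, as a description that rests on 9 shared points. For sli they were mld (0.95), CG31689 (0.94) and ush (0.92), and the same 3 led over the 18 libraries. For Ten-a they were boi (0.96), Zasp52 (0.96) and Ppa (0.96), and for Ten-m GATAd (0.96), Vps26 (0.95) and CG6006 (0.94). For fra they were pigs (0.96), CG4872 (0.96) and lncRNA:CR45290 (0.95). For NetB they were CG15201 (0.98), Mdr50 (0.97) and CG18585 (0.97), and for NetA CG10660 (0.97), CG33159 (0.95) and CG42390 (0.95). For robo2 they were ZnT49B (0.94), RnpS1 (0.94) and CG1677 (0.93), none of which was among the first 3 over the 18 libraries. The gene with the least variation, robo1, had the weakest likeness, with snoRNA:Me28S-U3344b (0.91), CG10395 (0.88) and rl (0.85). Over the 18 libraries several of these were far less alike: CG33159 with NetA had r of 0.66 and rank 461, CG10660 with NetA rank 32, CG18585 with NetB rank 79, and CG4872 with fra rank 53. No member was among the 3 genes most like another member.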

How the data were processed

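The authors deposited 3 tables of raw, unnormalized read counts for each gene in each library. HISAT2 2.1.0, featureCounts (Subread 2.0), DESeq2 and the build dm6 are named per the submitters' processing notes. Which annotation release and strand setting were used, and how reads in overlapping genes were treated, is not given in the sources used here. A gene length, a value of another kind, is also deposited. It matched the exons of the reference for the 9 genes and for 99.9% of all genes, and was used for RPKM. Symbols were joined by gene identifier.

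Tests used edgeR 4.0.16 in R 4.3.3 (genes kept by filterByExpr, scaled by TMM; two-sided quasi-likelihood test with the robust option; p-values adjusted by Benjamini-Hochberg across every tested gene). Comparisons of an induced line, and of wild type at 40 µM, were fitted on 6 libraries with 3 residual degrees of freedom. The other comparisons with untreated wild type and the interactions were fitted on 8 with 4, and differences between induced lines on 18 with 9. Standard errors are the log2 change over the root of F. Figures and levels were made with Python 3.11.15. Scripts were tested on simulated counts. The members, lists and comparisons were chosen with earlier results of these data known. All 9 members are named; from each list, up to 3 genes per direction with the largest called change of at least 2-fold; as similar genes, the 3 highest. Of the related genes, 1 that this rule names is not reported here. Alternatives were the RLE size factors, DESeq2 1.42.0, no filter, all 18 libraries, a replicate block and each library left out; added after the data were seen were library size alone, all 8 libraries of a table, untreated wild type as control and crossed replicate numbers. The untreated wild type libraries serve several comparisons. Intervals and floors cover counting error only, since reads carry no molecular identifiers. Sequences of the members and motifs in their promoters were not analysed here.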

Additional observations from a re-analysis of the deposited data

Results flagged for a closer look

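Results are listed here where a test of a difference between 2 effects was called, with no explanation weighed. The log2 change with copper includes induction of the factor in the lines. Between the Zld line and wild type it differed by 0.66 for sli, 0.36 for robo2, 0.73 for NetB and -0.37 for Ten-m. The sli level fell with copper in wild type and rose in the line. Between the Grh line and wild type the change with copper differed by -0.50 for sli, -0.23 for robo1 and -1.07 for NetA. For fra the difference was -1.06, for Ten-a 0.48 and for Ten-m -0.41.

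The change against wild type in Zld minus that in Grh was 1.43 for sli, 0.25 for robo1, 0.63 for NetB, 1.28 for fra, -0.54 for Ten-a and 0.44 for Ten-m. Zld minus Twi was 3.26 for sli, 0.53 for robo1, 0.49 for robo2 and 2.23 for Ten-a. Grh minus Twi was 1.83 for sli, 0.28 for robo1, -1.73 for fra and 2.77 for Ten-a. The 3 differences share groups with each other and are not independent.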

How the results depend on the processing

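Depth limits robo3, which stayed near the floor of 3 counts, and leaves NetA in the derived lines with 42 to 122 counts per group. With 2 libraries a group, many calls of small changes rest on a single library. Of the 120 log2 changes of members, 118 kept direction and call with the RLE size factors and 116 with the replicate block. With no filter 110 did, with DESeq2 106 and by library size alone 104. Where all 18 libraries were an alternative, 78 kept both, 13 lost the call, 3 gained it and 2 changed direction. Causes of the changes below were not tested. Library size alone, all 8 libraries of a table, untreated wild type as control and crossed numbers were chosen after seeing the data.

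Counts of called members became 5 in Grh against wild type, 3 in Grh against the untreated line and 2 in the Zld interaction with DESeq2. With all 18 libraries they became 3 in Grh against the untreated line, 2 in untreated Grh against untreated wild type and 1 in the Zld interaction. Counts over all genes became 1698 at 1000 µM with DESeq2, 1419 in Twi with no filter, 1945 in Twi and 1184 in untreated Grh with all 18 libraries, and 4975 in Zld and 4307 in Twi with untreated wild type as control.

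With each library left out in turn, called members and called genes were 5 to 5 and 1522 to 2227 in Zld against wild type, 4 to 6 and 2380 to 4288 in Zld against the untreated line, 6 to 8 and 4287 to 5318 in Grh against wild type, 3 to 5 and 1638 to 2532 in Grh against the untreated line, and 4 to 7 and 424 to 1258 in Twi. They were 3 to 6 and 1452 to 4241 at 40 µM, 6 to 7 and 3585 to 3845 at 100 µM, 4 to 4 and 1227 to 1390 at 1000 µM, 4 to 5 and 782 to 2729 in untreated Zld, and 2 to 5 and 1375 to 1541 in untreated Grh. They were 1 to 5 and 593 to 2000 in the Zld interaction, 5 to 7 and 3127 to 3947 in the Grh interaction, 3 to 5 and 3136 to 3657 in Zld minus Grh, 3 to 6 and 1304 to 2804 in Zld minus Twi, and 3 to 6 and 3042 to 4176 in Grh minus Twi.

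Direction turned only for values that were not called. For robo1 on Grh induction it was -0.013 with RLE, -0.033 by library size, -0.019 with DESeq2, -0.010 with no filter, -0.056 with 18 libraries and -0.0028 with 8. Ten-m there was -0.0053 with 18 libraries. Against untreated wild type, Twi gave 0.053 for robo1 and 0.099 for Ten-m. By library size, untreated Zld gave -0.018 for sli and -0.034 for Ten-a, untreated Grh -0.012 for NetB and -0.0072 for Ten-a, and Zld minus Twi -0.10 for NetA. With 1 library left out the ranges crossing 0 were -0.036 to 0.018 for Ten-a and -0.11 to 0.039 for robo2 in Zld against wild type, -0.040 to 0.042 for robo1 on Grh induction, -0.34 to 0.030 for sli at 40 µM, -0.10 to 0.18 for NetB at 100 µM, -0.014 to 0.13 for Ten-a in untreated Zld, -0.074 to 0.25 for NetB in untreated Grh, -0.16 to 0.0040 for Ten-a in the Zld interaction, -0.14 to 0.036 for robo2 in the Grh interaction, -0.36 to 0.28 for NetA and -0.017 to 0.34 for Ten-m in Zld minus Twi, and -0.40 to 0.056 for NetB in Grh minus Twi.

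Library size alone moved the median of all genes by -0.10 in Zld against wild type, -0.17 in Grh against wild type, -0.10 in untreated Grh, -0.12 in Zld minus Twi and -0.13 in Grh minus Twi. The share of calls that were higher went from 52.5% to 35.0% in Zld and from 55.3% to 34.8% in Grh against wild type, from 61.2% to 50.6% on Grh induction, from 50.5% to 23.5% in untreated Zld, from 49.5% to 20.8% in untreated Grh, from 52.6% to 30.5% in Zld minus Twi and from 46.1% to 32.7% in Grh minus Twi.

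Replicate numbers are shared between groups, but deviations of same-numbered libraries correlated at -0.27 to 0.58 over genes, so the numbers were not taken as pairs. With the replicate block the called members were 3 in untreated Grh in place of 5, where sli (-0.17) and Ten-m (-0.17) lost their calls. Ten-m in untreated Zld (0.19) lost its call too, NetB in Twi (0.64) gained one, and no other call changed. With crossed numbers, tried where the correlation was under -0.1, called members were 5 on Zld induction, 6 on Grh induction and 5 in untreated Grh, with 4099, 2264 and 1992 genes called.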
